A study of Schmidtea mediterranea with 40 samples.

Results

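The transcripts described here reached their highest mean level in stage 5 (S5) embryos of the planarian flatworm Schmidtea mediterranea and were low again by stage 8 (S8). They were chosen on the mean RPKM (read counts corrected for the length of the transcript and the size of the library) of each group of 4 samples. S5 had to be the highest of the 10 group means and at least 5 RPKM, and the S8 mean had to be at most 0.2 times the S5 mean. Of 35262 transcripts 59 met the rule. A limit of 200 transcripts was not reached. For comparison, 7689 other transcripts had an S5 mean of at least 5 RPKM. S5 was the highest group for 3545 transcripts, of which 1572 had an S5 mean of at least 5 RPKM. All 10 group means thus served for the choice, since each had to lie under that of S5. Levels in S5 and S8 are given as a description, and no test was made of S5 or S8 against any group. Comparisons between the other groups are not free of the choice either, because it kept these means under S5 and the S8 mean low.

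Polyadenylated RNA was sequenced from 40 samples, 4 in each of 10 groups, kept at 20 °C. Yolk samples (Y) came, by the paper, from egg capsules 8 days after deposition that held no spherical or elongating embryo. The Y samples are listed under day 0. Single, outbred embryos of the sexual strain were collected 2 days after capsule deposition for S2, 3 days for S3, 4 days for S4, 6 days for S5, 9 days for S6, 10 days for S7 and 14 days for S8. Intact adults were either asexual animals of the clonal CIW4 line (C4) or virgin, sexually mature animals (SX). No group was treated or genetically altered. C4 comes from a single clone, and the embryos had been picked for size, morphology and RNA yield and quality. S2 and S3 libraries were made from less RNA than the others. Each sequencing lane held 1 library of every group except SX, and the SX libraries were run on a lane and instrument of their own, so that SX and C4 cannot be told apart from that run. Each embryo library is a whole animal. Fewer cells of a type and less RNA per cell cannot be told apart in these values.

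In Schmidtea mediterranea the yolk lies in cells outside the egg. Early embryos build a temporary pharynx and a transient gut, swallow the surrounding yolk cells, and only later form the organs of the definitive body from blastomeres that resemble the stem cells (neoblasts) of the adult. Digestion in flatworms is largely intracellular. Phagocytic gut cells take food into vesicles that fuse with lysosomes, where cathepsins cut proteins, alpha-glucosidase frees glucose from glycogen, ribonuclease T2 degrades RNA and NPC2-type proteins carry cholesterol out of the lysosome.

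Of the 59 transcripts, 47 were in the annotation tables of the study and 12 were not. A BLASTx hit or planarian gene name was given for 32 of them, and 27 had a hit in Swiss-Prot. Through these descriptions 25 fell into 8 gene lists. These were 9 lysosomal proteins, 3 perforin-like proteins, 3 innexins, 2 membrane transporters, 5 transcription factors or signalling proteins, and 1 each of the cytochromes P450, the extracellular proteases and the autophagy and proteasome proteins. A list of 24 cell cycle transcripts contributed none. A signal peptide was predicted for 14 of the 47 annotated members (29.8%) and for 617 of 3735 other transcripts in those tables (16.5%). A membrane segment was predicted for 29.8% and 29.5%, and the median length was 1006 and 1408 bases. These shares are descriptions of an annotation that covers only 3782 of the 35262 transcripts. Those tables largely list transcripts that the study picked for their expression, such as those enriched at a stage or in neoblasts. The other transcripts are thus not a sample of the whole transcriptome.

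The study used 4 of the members to mark the embryonic gut: CTSL-like (a cathepsin L type protease), a pair of LYAG-like transcripts (lysosomal alpha-glucosidase type) and MPEG1-like-3 (a perforin-like protein of phagocytes). It also reported signal of all 3 probes in the temporary pharynx from S2 to S4, and used LYAG-like to mark that pharynx in S4. Part of each in situ probe is printed here from the study's probe construct table, on the transcript strand. These 3 probes cover CTSL-like, the LYAG-like pair and MPEG1-like-3. They do not show where the other lysosomal and perforin-like members were expressed. The position in the genome was not analysed here. In CTSL-like the capitals are the 4 codons around the catalytic cysteine of the cathepsin fold, found by the motif TGNGGNTCNTGN. In MPEG1-like-3 they are the 4 codons of the signature of the pore-forming MACPF domain, found by TTNGGNACNCAN. In LYAG-like they are the left cloning primer. Both motifs were searched on both strands in the 23 probe inserts that could be read, of each at most the first 399 bases, and each was found in 1 of 23.
CTSL-like, bases 273 to 399 of the insert: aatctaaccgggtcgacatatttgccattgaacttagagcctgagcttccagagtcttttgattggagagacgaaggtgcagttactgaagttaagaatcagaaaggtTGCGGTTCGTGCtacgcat
LYAG-like, bases 1 to 120 of the insert: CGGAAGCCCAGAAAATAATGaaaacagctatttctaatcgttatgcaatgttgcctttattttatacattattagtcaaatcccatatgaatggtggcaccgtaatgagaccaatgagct
MPEG1-like-3, bases 84 to 203 of the insert: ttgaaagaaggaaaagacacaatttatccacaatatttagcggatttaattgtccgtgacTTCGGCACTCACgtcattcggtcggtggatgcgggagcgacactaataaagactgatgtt

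Between 5.13 and 16.4 M reads per library fell on transcripts (median 10.7 M). In Y a single read on 1 kilobase was worth a median of 0.360 RPKM, against 0.0815 in S5 and 0.0376 in S8, so low values in Y are coarse, mainly through its scaling factor (mean 0.261, S8 2.21). Of the 59 members, 9 had no read at all in the 4 Y libraries.

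The summed RPKM of the 59 members shows how the set as a whole moved through development. The yolk mean was 61.5 ± 39.5 (SD, n = 4, as for all groups). The S2 mean was 573 ± 511, the S3 mean 1392 ± 1731 and the S4 mean 1782 ± 802. S5, the group that chose the members, reached 5189 ± 734. The level then stood at 1755 ± 539 for S6, 463 ± 283 for S7 and 201 ± 16.3 for S8, with C4 at 107 ± 19.1 and SX at 101 ± 14.2. The SD exceeded the mean only in S3, where the 4 embryos gave 656, 820, 141 and 3952. Taken per member, the median level relative to S5 was 1.21% for yolk, then 7.83%, 20.1% and 26.8% from S2 to S4, 35.4%, 14.6% and 8.08% from S6 to S8, and 3.54% (C4) and 3.15% (SX) for adults. As a share of all reads, which carries no TMM scaling, the members took 0.00142% for Y, 0.108% ± 0.0867 for S4, 0.519% ± 0.149 for S5, 0.327% ± 0.125 for S6 and 0.0384% ± 0.00151 for S8. On this scale the samples of S4 (0.0471% to 0.236%) overlapped those of S6 (0.168% to 0.469%), and those of S6 overlapped S5 (0.328% to 0.656%). The reads behind these shares were rebuilt, and those of SMED30033583, the highest member, may be too high because all were even.

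**Figure D1:**
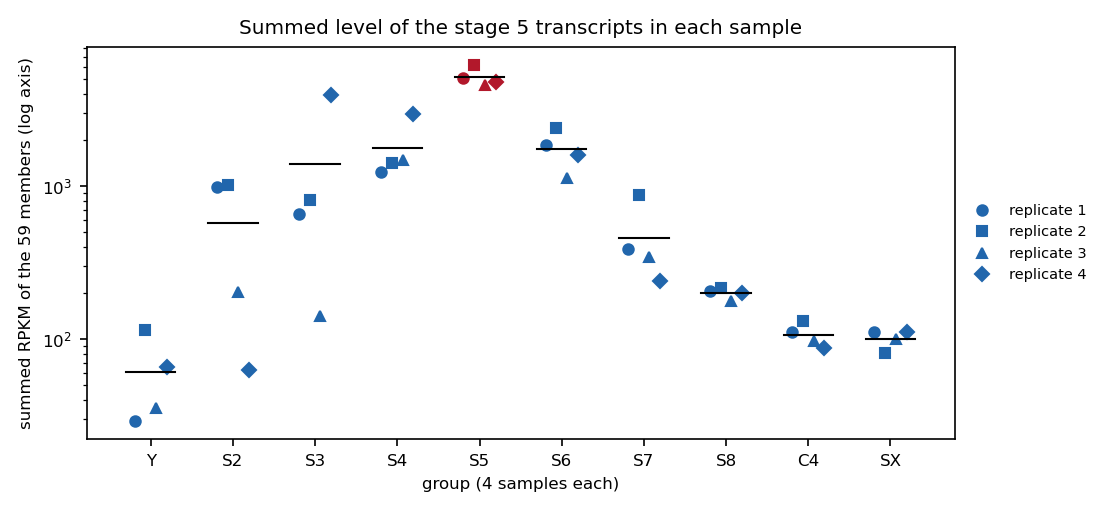
Summed RPKM of the 59 members in each of the 40 samples, on a log axis, by group (4 samples each); each marker shape is a replicate number, the bar is the group mean, and S5 is in red. The 4 S5 embryos sit between 4568 and 6237, and S3 replicate 4 (3952) lies far above the other 3 S3 embryos.

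Single embryos of S2, S3, S4 and S7 stood apart from their group. S3 replicate 4 was the highest S3 embryo for 50 of the 58 members with a read in S3, against 36.5% of all transcripts with a read there, and it reached the lowest S5 embryo for 21 of 59. S4 replicate 4 was the highest of its group for 51 of 59 (39.1% of all transcripts), and S7 replicate 2 for 41 (26.8%). S3 replicate 3 and S2 replicate 4 were low, with a median member at 1.27% and 0.839% of the S5 mean. Marker levels of other cell types moved with some of these embryos. The summed RPKM of 3 piwi genes, which mark blastomeres and neoblasts, was 1057 in S3 replicate 4 and 121 to 357 in the other 3, and 1252 in S4 replicate 4 against 561 to 751. The 4 markers of the temporary pharynx summed to 49.8 in S3 replicate 3 against 571 to 684 in the others of S3, and the 2 of the primitive ectoderm to 1.501 in S2 replicate 4 against 82.5 to 544 in the others of S2. The part of this in the members' levels was not tested. The 4 embryonic gut markers are all members, so their sum, 655 to 878 in S5 and 2.06 to 2.70 in S8, repeats the choice.

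In S5 the mean level of a member ranged from 5.08 to 1685 RPKM (median 13.7). The 10 highest members held 82.4% of the summed S5 level. The coefficient of variation over the 4 S5 embryos ranged from 3.76% to 95.7% (median 25.1%). S5 replicate 2 was the highest of these embryos for 30 members, and replicate 1 the lowest for 25. The epidermal progenitor markers summed to 102 in S5 replicate 1 against 425 to 469 in the other 3, and the temporary pharynx markers to 242 against 52.7 to 135. The ratio of S5 to S8, with 0.1 RPKM added to both, ranged from 4.88 to 1166 (median 11.3). Second to S5 came S6 for 28 members, S4 for 21, S3 for 8 and C4 for 2. The order of S4 and S6 depended on the scaling, since S4 was above S6 for 28 members with the deposited values and for 7 without TMM. Without TMM the S6 mean was also above the S5 mean for 10 members, namely the cathepsin L type SMED30017650, SMED30033003, SMED30024936, SMED30023315, SMED30030602, inx13 (SMED30023483), SMED30023818, SMED30002163, thyroid hormone receptor-1 (SMED30022293) and wntP-3 (SMED30001470). All 4 S5 embryos lay above all 36 other samples for 19 members, a pattern that 0.7% of all transcripts showed and from which nothing is read, because S5 chose the members.

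**Figure D2:**
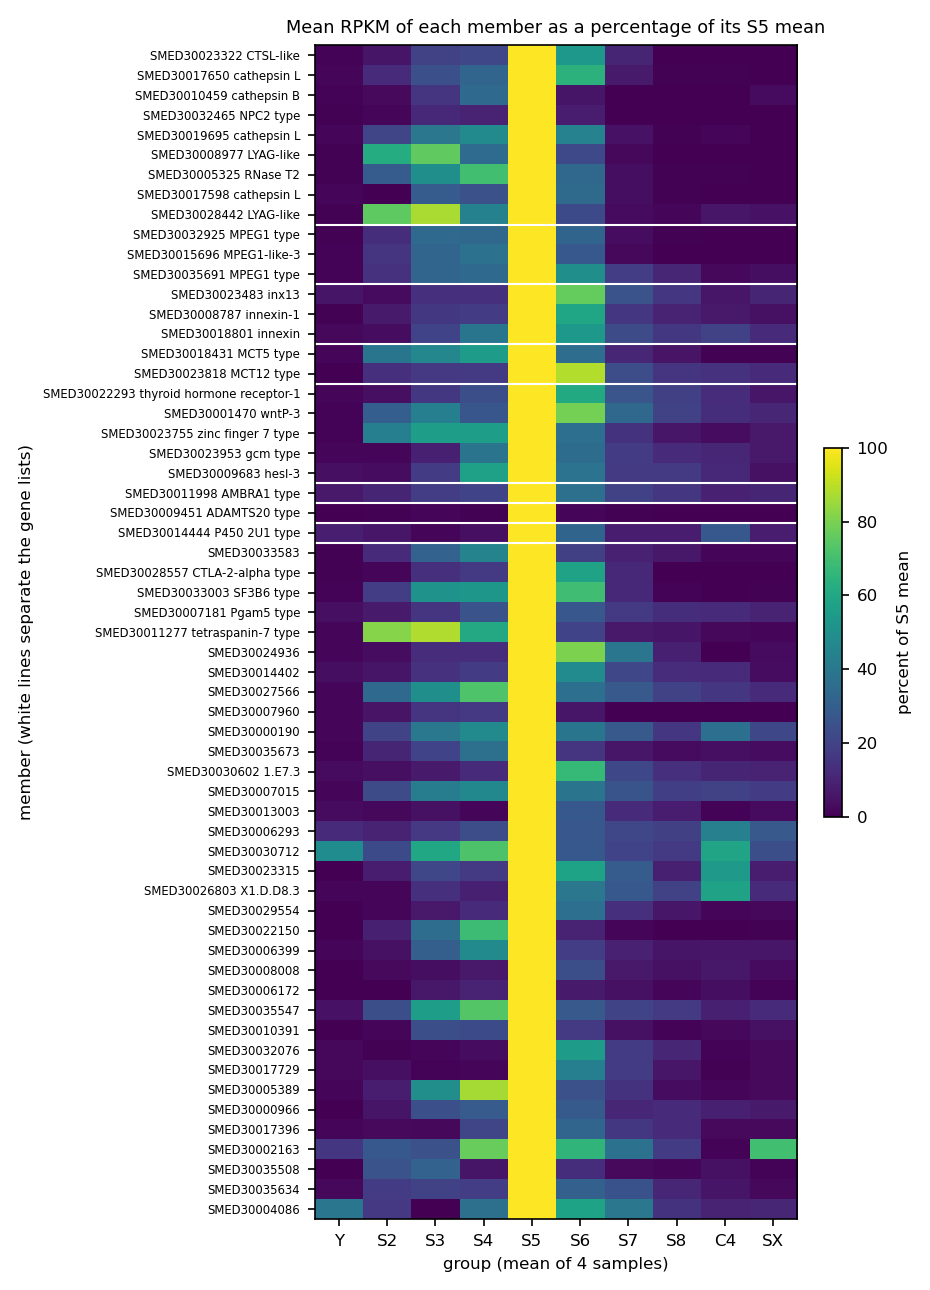
Mean RPKM of each of the 59 members (rows, grouped by gene list between white lines) in the 10 groups (columns), coloured as a percentage of the S5 mean of that member. The S5 column is 100 by construction; the 9 lysosomal members at the top are dark in S8 (0.0621% to 1.304%), while the innexins keep 9.66% to 16.2%.

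At the limits of the rule the values ran on without a gap. SMED30026803 and SMED30027566 entered with an S8 mean of 19.6% and 19.7% of S5, and SMED30012151 and SMED30009393 stayed out at 20.2% and 20.8%. SMED30004086 (5.08 RPKM) and SMED30035634 (5.34 RPKM) were just above the S5 limit, and SMED30023187 (4.89 RPKM) and SMED30000531 (4.86 RPKM) just below it. A monocarboxylate transporter 12 type transcript, SMED30023818, was in with an S6 mean of 88.3% of S5, and a tetraspanin-7 type transcript, SMED30011277, with an S3 mean of 88.2%. SMED30000513, at 102.6% of S5 in S6, and an innexin unc-9 type transcript, SMED30002918, at 107.9% in S3, were out.

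The 9 lysosomal members made up 41.0% of the summed S5 level. They are proteases, a glycosidase, a nuclease and a lipid carrier that act inside the lysosome. Their S5 means ran from 27.0 to 585 RPKM (median 228), and their S8 means from 0.0621% to 1.304% of S5. The whole list held 25 transcripts, drawn only from the annotation tables of the study. The 16 that are not members had summed means of 1060 RPKM in S5, 1673 in S8, 2661 in C4 and 3447 in SX. Each of them failed the rule, so a course unlike that of the members is largely set by the choice. Of all 25, 10 had their highest mean in S5 and 3 in S3.

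CTSL-like (SMED30023322), the cathepsin L type protease whose probe is printed above, had the second highest S5 level of the 59. Its level was 473, 543, 683 and 638 RPKM in the 4 S5 embryos. It was 51.3, 116, 108 and 224 in S4, 304, 545, 149 and 248 in S6, and 32.7, 189, 22.8 and 0.878 in S7. S5 and S6 overlapped through S6 replicate 2, and the S7 embryos spanned a wider relative range than those of the neighbouring groups. In S3 replicate 4 it stood at 389 against 2.33 to 38.2 in the other 3, and S8, C4 and SX were all between 0.655 and 2.07.

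A cathepsin B type protease (SMED30010459) was low from S6 on. Its 4 S5 values were 504, 587, 236 and 362 RPKM, and its S4 values 82.4, 140, 103 and 255. S6 gave 34.0, 28.5, 5.47 and 26.2, and S7 and S8 together 0.126 to 3.01. The S3 embryos were at 2.93, 3.02 and 1.13, with the fourth at 245. This was the member with the largest ratio of S5 to S8. It was also the highest lysosomal member in sexual adults. The SX animals had 0.0634, 9.71, 20.2 and 22.5 RPKM, and the C4 animals 0.0330 to 0.269, so that 1 SX animal lay inside the C4 range.

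The NPC2-type transcript (SMED30032465) was found in S5 at 221, 305, 228 and 222 RPKM. Outside S5 the highest sample was S3 replicate 4 with 98.6, and the other 3 S3 embryos had 1.98 to 7.46. S4 gave 9.79, 13.1, 22.3 and 48.6, and S6 31.4, 30.0, 3.50 and 11.7. No read was found in the 4 SX libraries. Taking 3 reads over the group as the floor, its S5 mean was at least 4117-fold higher than in SX.

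Both LYAG-like transcripts were already high in early embryos. SMED30008977 had 53.2, 74.0, 16.1 and 1.08 RPKM in S2, 62.2, 74.1, 0.728 and 40.0 in S3, and 16.2, 19.8, 14.3 and 31.7 in S4. The S5 embryos had 49.8, 49.8, 62.9 and 71.2, so that single S2 and S3 embryos overlapped S5. S6 gave 4.30, 10.7, 17.1 and 19.6, and S8 was at most 0.148. The second transcript, SMED30028442, has the same length of 2946 bases, and a single probe served for both. Its level was 0.46 to 0.62 times that of the first from S2 to S7, but 14.9 times in C4 and 5.88 times in SX, where both were low (1.67 ± 0.192 and 0.112 ± 0.0386 RPKM in C4). The read mapping allowed up to 5 matches per read, so how reads were split between such similar transcripts is uncertain.

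The other 4 lysosomal members are 3 cathepsin L type transcripts and a ribonuclease T2. SMED30017650 had an S5 mean of 469 ± 140 RPKM and kept 64.2% of it in S6 (without TMM it had 549 in S5 and 575 in S6), SMED30019695 had 228 ± 37.8 and kept 44.5%, and SMED30017598 had 41.8 ± 2.42 and kept 34.4%. The ribonuclease T2 transcript (SMED30005325) had 50.8 ± 10.5 RPKM in S5, 69.9% of this in S4 and 33.4% in S6. A transcript related to the protease inhibitor CTLA-2-alpha (SMED30028557), which belonged to none of the lists, followed a similar course, with an S5 mean of 335 ± 68.6 RPKM. Its S4 mean was 56.4 ± 38.3, its S6 mean 192 ± 105 and its S8 mean 1.08 ± 0.438.

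**Figure D3:**
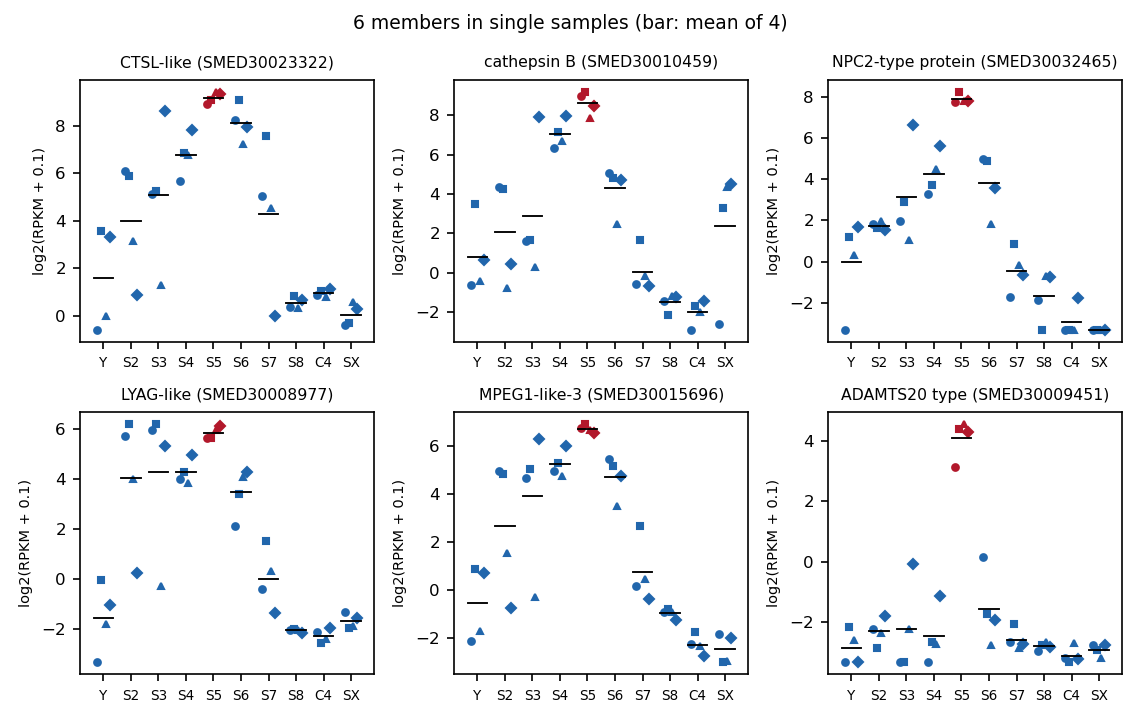
Level of 6 members in the 40 single samples, as log2(RPKM + 0.1), by group; each marker shape is a replicate number, the bar is the mean of the 4 log2 values, and S5 is in red. The ADAMTS20-type transcript is at 1.00 RPKM or less outside S5, LYAG-like reaches its S5 level in single S2 and S3 embryos, and cathepsin B is above 9 RPKM in 3 of 4 SX animals.

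Perforin-like proteins of the MPEG1 type form pores and are known from phagocytes, where they act on engulfed microbes. All 3 members of this type varied little among the S5 embryos (coefficients of variation of 6.67% to 10.4%), and all 4 S5 embryos were above every other sample. MPEG1-like-3 (SMED30015696) had 107, 121, 103 and 94.2 RPKM in S5, 30.9, 39.2, 26.7 and 63.5 in S4, and 43.7, 35.5, 11.2 and 27.1 in S6. It was at 1.02, 6.33, 1.26 and 0.677 in S7. SMED30032925 had 125 ± 12.7 RPKM in S5 and 0.684 ± 0.170 in S8. SMED30035691 was lower in S5 (76.1 ± 5.08) and was still at 8.07 ± 1.13 in S8.

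Innexins build the gap junctions of invertebrates. The 3 innexin members kept 53.2% to 76.4% of their S5 level in S6 with the deposited scaling, but without TMM inx13 was at 74.9 RPKM in S6 and 58.5 in S5. The one named inx13 (SMED30023483) had 42.6, 52.2, 60.3 and 50.02 RPKM in S5 and 43.3, 49.6, 25.9 and 38.0 in S6, and these groups overlapped. It had 3.72, 2.75, 4.63 and 16.8 in S4. The second, innexin-1 (SMED30008787), had 24.6 ± 6.42 RPKM in S5 and 14.6 ± 4.62 in S6, and the third, SMED30018801, 12.3 ± 1.36 and 6.55 ± 1.83. Among the members with a hit to a monocarboxylate transporter, SMED30023818 (type 12) had 5.93 ± 1.93 in S5 and 5.24 ± 0.936 in S6, and SMED30018431 (type 5) had 13.7 ± 3.82 and 4.89 ± 1.99.

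Among regulators, thyroid hormone receptor-1 (SMED30022293), a nuclear receptor, was the most abundant. Its S5 embryos had 52.9, 70.6, 57.6 and 53.8 RPKM, above all other samples. In S4 it had 9.42, 9.67, 11.8 and 25.7, and in S6 34.6, 44.1, 29.2 and 34.96. The S8 level, 11.2 ± 0.897, was close to the limit of the rule. The ligand wntP-3 (SMED30001470), of the Wnt family of secreted signals, had 22.0 RPKM in S5 replicate 1 and 10.7, 10.8 and 10.2 in the other 3. Its S6 embryos had 13.1, 11.2, 7.20 and 11.0, and thus overlapped S5. The remaining regulators were low. A zinc finger 7 type transcript (SMED30023755) had 8.15 ± 1.26 RPKM in S5, a transcription factor of the glial cells missing type (SMED30023953) 5.86 ± 1.86, and hesl-3 (SMED30009683), of the hairy/enhancer-of-split family of repressors, 5.40 ± 1.74.

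The member most restricted to S5 encoded an ADAMTS20-type metalloprotease (SMED30009451), a secreted enzyme of the family that cuts extracellular matrix. It had 8.70, 20.8, 23.3 and 19.6 RPKM in the S5 embryos. Outside S5 the highest sample was S6 replicate 1 with 1.00, followed by S3 replicate 4 with 0.849. The S4 embryos had 0, 0.0598, 0.0519 and 0.350. A transcript without a hit, SMED30017729, was likewise low in S4 (0 to 0.302 RPKM) but not in S6. It had 5.66, 8.99, 4.65 and 9.38 RPKM in S5 and 5.44, 2.43, 2.29 and 2.27 in S6, so that S6 replicate 1 overlapped S5. AMBRA1, an activator of autophagy, was represented by SMED30011998, which varied least among the S5 embryos (21.9 ± 0.823 RPKM). A cytochrome P450 of the 2U1 type (SMED30014444), a haem enzyme that oxidises lipids, had 5.70 ± 3.68 in S5.

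The highest member of all, SMED30033583, had no annotation. The S5 embryos had 2082, 2319, 959 and 1381 RPKM, and the S4 embryos 629, 455, 689 and 1245. S3 replicate 4 had 1676, inside the S5 range, and the other 3 S3 embryos had 136, 241 and 69.9. S8 was at 106 ± 15.8, the highest S8 level in the set. Other members outside the lists were a splicing factor 3B subunit 6 type transcript (SMED30033003, 64.3 ± 16.1 RPKM in S5), a Pgam5-type mitochondrial phosphatase (SMED30007181, 60.04 ± 15.7), the tetraspanin-7 type SMED30011277 (38.9 ± 6.65) and SMED30007960 (20.4 ± 2.61), without a hit, which had no read in SX and whose S5 mean was at least 522-fold higher. SMED30035508 (5.62 ± 0.729) has 7 predicted membrane segments. The least even member was SMED30002163, with 4.26, 13.3, 4.42 and 0.584 RPKM in S5.

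Among the groups before S5, S4 was first compared with Y, 4-day embryos with the yolk of 8-day capsules. In S4 46 of the 59 members were higher than in Y and 0 were lower, where 22.7% of all 31489 transcripts tested were higher and 8.24% lower. The rule kept the Y and S4 means of every member under S5, so this split is not free of the choice. At an unadjusted p under 0.05 48 members passed, as did 12229 of the 31489 transcripts. With voom on rebuilt reads 38 members were higher and 0 lower (15.2% and 8.64% of all transcripts). The median log2 fold change was 4.10 for the members and 0.36 for all transcripts. Among other transcripts with an S5 mean of at least 5 RPKM, 2458 of 7689 were higher and 2026 lower. Markers of other embryonic cell types were higher in S4 too, by 5.41 to 9.61 on the log2 scale for the 4 of the temporary pharynx, by 6.49 and 6.81 for the 2 of the primitive ectoderm and by 1.99 to 2.18 for the 3 piwi genes. The gamma class marker gata456a was lower (-1.23). Their part in the members' values was not tested. Tests here and below were made with limma on log2(RPKM + 0.1) over the 32 yolk and embryo samples, with Benjamini-Hochberg adjustment over all transcripts tested and a call at an adjusted p under 0.05. With such a pseudocount the fold change of low transcripts is understated. All 9 lysosomal members, all 3 MPEG1-type members and all 5 regulators were higher in S4, as were 2 of 3 innexins and both transporters. Of the transcripts in these lists that are not members, 5 of 16, 5 of 7, 58 of 163, 11 of 36 and 30 of 83 were higher, in that order.

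The tetraspanin-7 type SMED30011277 showed the largest rise from Y to S4, by 6.72 ± 0.68 (log2 fold change ± SE, limma adjusted p = 1.11e-08). It had 0, 1.98, 0 and 0 RPKM in Y and 14.6, 23.9, 22.1 and 33.1 in S4. SMED30033583 rose by 6.56 ± 0.80 (limma adjusted p = 2.62e-07), from 2.30, 27.6, 3.64 and 12.5 RPKM. Ribonuclease T2 rose by 6.499 ± 1.22 and cathepsin B by 6.27 ± 1.16. MPEG1-like-3 rose by 5.80 ± 1.06, CTSL-like by 5.21 ± 1.27, the NPC2-type transcript by 4.32 ± 0.95 and thyroid hormone receptor-1 by 4.13 ± 0.71, at limma adjusted p values of 3.86e-05 to 0.00201. For each of these 8 transcripts the call held without any single sample and in every alternative fit. Among the 13 members that did not pass were the ADAMTS20-type protease (0.39 ± 0.60), inx13 (0.91 ± 0.63) and the cytochrome P450 (-0.63 ± 0.71).

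From S3 to S4 only 5 members passed, all higher, against 1.47% of all transcripts higher and 1.6% lower. The median change was 1.04 for members and 0 for all transcripts. A fold change above 0 was found for 52 of 59 members and 15210 of 31489 transcripts. At an unadjusted p under 0.05 16 members and 5338 transcripts passed. SMED30004086, which has no annotation, had no read in S3 and 1.60, 1.63, 2.82 and 1.46 RPKM in S4 (4.26 ± 0.83, limma adjusted p = 0.00598, a fitted value that depends on the pseudocount). Its S4 values rest on only 2, 2, 4 and 4 rebuilt reads, which may be too high because all its counts were even. Cathepsin B was higher by 4.18 ± 1.16 (limma adjusted p = 0.0445). The glial cells missing type factor was higher by 2.71 ± 0.66 (adjusted p = 0.0219), hesl-3 by 2.90 ± 0.76 (0.0331) and SMED30017396, without a hit, by 2.50 ± 0.66 (0.0348), all by limma. This count rested on single embryos. It was 23 without S3 replicate 4, where 2274 of 31426 transcripts were higher, against 463 of 31489 in the main fit. It was 2 without S3 replicate 1 or 2 (295 and 140 of all transcripts). It was 1 without S3 replicate 3 or S4 replicate 4 (117 and 168), and 3 without S4 replicate 1, 2 or 3 (413, 596 and 270). It was 4 higher and 1 lower after quantile normalization (1.89% and 1.5% of all transcripts), 1 higher without the TMM scaling (0.111%), and 0 where S3 and S4 were fitted alone, as for all transcripts.

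**Figure D4:**
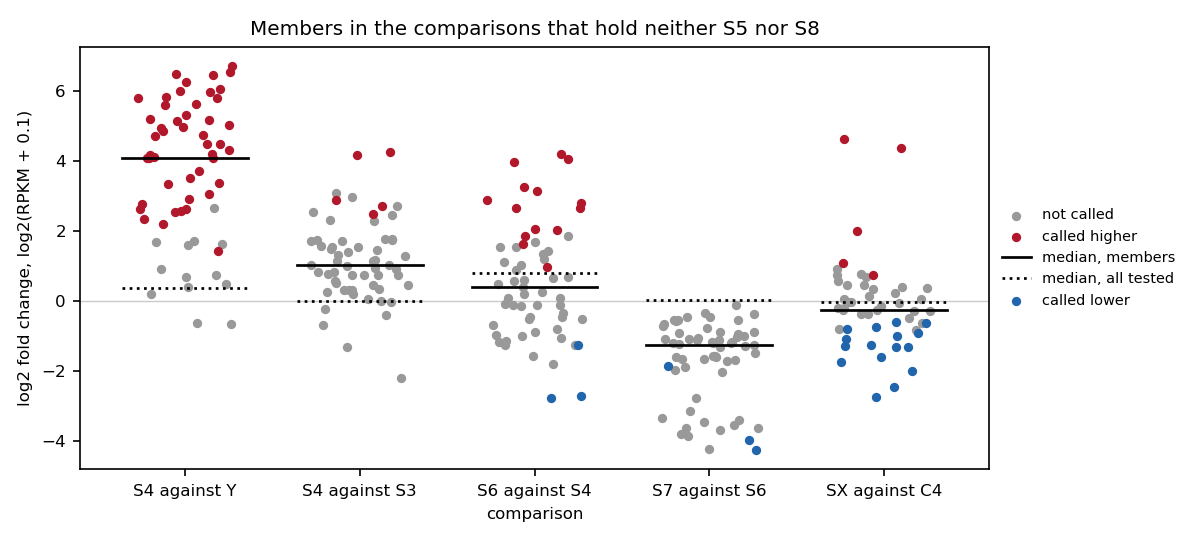
Log2 fold change of each member on the log2(RPKM + 0.1) scale in the 5 comparisons that hold neither S5 nor S8 (59 members, 51 in SX against C4); red and blue points were called higher and lower by limma, grey points were not. Solid bars are the median of the members and dotted bars that of all transcripts tested; the members' median is 4.10 in S4 against Y and -1.27 in S7 against S6, where all 59 points lie below 0, as the rule's low S8 level largely sets.

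S4 and S6 stand on either side of S5, and their comparison shows on which side a member was higher. In S6 14 members were higher and 3 lower than in S4, where 40.4% of all transcripts were higher and 13.6% lower. This split depended on the scaling. Without TMM it was 29 higher and 0 lower (68.1% and 4.09% of all transcripts), and with quantile normalization 9 higher and 7 lower (20.1% and 20.5%). The median change was 0.40 for members and 0.79 for all transcripts with the deposited scaling, 1.83 and 1.76 without TMM, and -0.05 and -0.13 after quantile normalization. Of the lysosomal members 0 were higher and 1 lower, and of the innexins 2 of 3 were higher. Of the other transcripts in these lists, 11 of 16 lysosomal ones were higher and 2 lower, and 25 of 36 innexins were higher and 10 lower. The rule kept the S4 and S6 means of members under S5 and their S8 mean low. Differences from other transcripts are thus not free of the choice.

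Transcripts without annotation led the members that were higher in S6. SMED30013003 was higher by 4.21 ± 0.81 (limma adjusted p = 6.99e-05), SMED30032076 by 4.06 ± 0.70 (1.79e-05) and SMED30017729 by 3.97 ± 0.57 (1.28e-06). In S4 SMED30013003 had 0, 0, 0 and 0.839 RPKM, and in S6 4.84, 3.54, 1.91 and 2.98. Inx13 was higher by 2.81 ± 0.63 (0.000431), the P450 by 2.66 ± 0.71 (0.00250), the type 12 monocarboxylate transporter by 2.65 ± 0.68 (0.00171), innexin-1 by 1.86 ± 0.50 (0.00272) and wntP-3 by 1.62 ± 0.63 (0.0322), all limma adjusted p. The calls of these 5 held without the TMM scaling. With quantile normalization those of the P450 and wntP-3 did not. Cathepsin B (-2.76 ± 1.16, limma adjusted p = 0.0456), SMED30022150 (-2.71 ± 1.00, 0.0234) and SMED30030712 (-1.26 ± 0.48, 0.0265) were lower in S6. None of these 3 was lower at the threshold without TMM, and SMED30030712 then had a fold change of 0.27. The count of members lower in S6 was 0 without S4 replicate 4 and 1 without S4 replicate 2 or S6 replicate 3. It was 5 without S3 replicate 3. Over all transcripts 4125, 4051, 4016 and 4413 were lower in these 4 fits, in that order, and 4284 in the main fit.

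S6 and S7 lie between the peak and the low S8 level that the rule asked for, so lower values in S7 follow largely from the choice and nothing is read from their number. From S6 to S7 all 59 members had a fold change below 0 (median -1.27, all transcripts 0.03). Of these 3 passed the test, all lower, and 0 were higher, where 1.96% of all transcripts were higher and 0.152% lower. At an unadjusted p under 0.05 26 members passed, as did 2819 of 31489 transcripts. The NPC2-type transcript fell by 4.27 ± 0.95 on the log2 scale (limma adjusted p = 0.00949), from the 4 S6 values above to 0.198, 1.70, 0.776 and 0.527 RPKM in S7, and the groups did not overlap. MPEG1-like-3 fell by 3.99 ± 1.06 (0.0393) and innexin-1, from 15.7, 19.8, 8.597 and 14.2 to 3.35, 5.65, 3.06 and 3.56 RPKM, by 1.85 ± 0.50 (0.0458), both limma adjusted p. CTSL-like had a change of -3.86 ± 1.27 and did not pass (limma adjusted p = 0.144). The median of the 9 lysosomal members was -3.68. Other fits gave more calls. The count was 15 with a pseudocount of 1 RPKM (0.572% of all transcripts lower), 18 with quantile normalization (0.613%), 24 with voom on rebuilt reads (0.601%) and 38 where S6 and S7 were fitted alone (3.69%), but 0 with a pseudocount of 0.01 (0.0857%). It was 0 without S6 replicate 1, S6 replicate 2 or S7 replicate 1, 1 without S6 replicate 4, S7 replicate 3 or S7 replicate 4, 8 without S7 replicate 2 or S2 replicate 4, 7 without S3 replicate 3, 6 without S2 replicate 2 and 5 without S3 replicate 4.

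In adults most members were low. The mean was under 1 RPKM for 36 members in C4 and for 39 in SX. The rule kept both adult means under S5 and no share of all transcripts was taken, so nothing is read from these counts. In the fit on the 8 adults 51 members passed the filter. Of these 5 were higher in SX than in C4 and 16 lower, where 23.9% of the 28714 transcripts tested were higher and 26.7% lower. After quantile normalization the split was 2 higher and 25 lower, and that of all transcripts 18.0% and 38.8%. The median change was -0.25 for members and -0.02 for all transcripts. SMED30002163, without annotation, was higher in SX by 4.65 ± 0.36 (limma adjusted p = 1.86e-06), at 6.08, 4.59, 2.31 and 2.77 RPKM against 0, 0.0936, 0.0672 and 0.0552 in C4, and the groups did not overlap. Cathepsin B was higher by 4.39 ± 1.33 (limma adjusted p = 0.0191), a call that was lost without C4 replicate 1 or without SX replicate 2, 3 or 4 and with voom. SMED30024936, without a hit, was higher by 2.00 ± 0.75 and inx13 by 0.75 ± 0.24. The count of members higher was 1 without C4 replicate 1 or SX replicate 3 (5994 and 6059 of all transcripts). It was 2 without SX replicate 4 (5921) and 3 without C4 replicate 3 or 4 (6477 and 6782). In the main fit 6869 of 28714 transcripts were higher.

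Members lower in SX included SMED30023315, without annotation, at -2.74 ± 0.27 (limma adjusted p = 1.35e-05). It had 6.12, 5.03, 4.31 and 5.35 RPKM in C4 and 0.640, 1.23, 0.626 and 0.435 in SX. The cathepsin L type SMED30019695 was lower, at -2.47 ± 0.35 (0.000213), with 2.72, 4.97, 2.92 and 2.19 in C4 and 0.264, 0.380, 0.903 and 0.504 in SX. SMED30026803, named X1.D.D8.3 in planarians, was lower, at -2.01 ± 0.32 (0.000499), thyroid hormone receptor-1 at -0.999 ± 0.14 (0.000163) and CTSL-like at -0.90 ± 0.26 (0.0149), all limma adjusted p. These 5 calls held without any single adult and in every alternative fit. Of the 7 lysosomal members tested, 4 were lower and 1 was higher. Among the 16 others in that list, 7 were lower and 4 higher.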

How the data were processed

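The authors mapped single-end reads of polyadenylated RNA to a transcriptome assembly with Bowtie, removed 16S rRNA, counted reads per transcript and deposited RPKM values scaled by TMM factors from edgeR. All 40 columns were matched to samples by label. Within a tolerance of 0.001 reads, 100% of values above 0 were whole reads once length and depth were worked out, and these reads gave the depth, the floor of 3 reads and the fits without TMM or with voom. Whole values do not fix a length. All rebuilt reads of SMED30033583 and SMED30004086 were even, at worked-out lengths of 300 and 310 bases, so these lengths and reads may be too high. Tests used limma 3.58.1 in R 4.3.3 with a trend on log2(RPKM + 0.1), 1 fit on the 32 yolk and embryo samples and 1 on the 8 adults, for transcripts whose values reached a sum of 1 RPKM over the samples fitted, and alternatives changed the pseudocount, filter, scaling, block, fit or samples. The fits were tested on simulated data. Groups followed the labels. Named are annotated members of the lists, the 10 highest, the 10 with the largest ratio of S5 to S8, the 3 largest called changes per comparison and direction, and those at the limits of the rule; SMED30035508, the other members without a hit and a few single comparisons were picked after their values were seen. Members and lists were chosen with earlier results of these data known. Whether single embryos are independent of their capsule is not given in the sources used here, so p-values rest on the spread between these samples. In the embryo fit this spread within groups was pooled over all 32 yolk and embryo samples. It is not that of the groups compared alone.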

Additional observations from a re-analysis of the deposited data

Results flagged for a closer look

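Within groups of 4, a sample was looked at again where its gap to the nearest other sample exceeded the critical value of Dixon's test, which chance gives in about 5% of groups. Of 139 groups over 14 measures (12 members, the summed RPKM and the median RPKM) 26 had such a sample. The measures share the same embryos, so the 26 are not independent.

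S3 replicate 4 was high for the median member (10.57 RPKM, others 0.6915 to 1.595), CTSL-like SMED30023322 (388.6), cathepsin B SMED30010459 (244.9), NPC2-type SMED30032465 (98.57), ADAMTS20-type SMED30009451 (0.8492), SMED30033583 (1676), inx13 SMED30023483 (21.98) and thyroid hormone receptor-1 SMED30022293 (32.72). S4 replicate 4 was high for the summed RPKM (2974, others 1238 to 1491), ADAMTS20-type (0.3502), inx13 (16.82) and thyroid hormone receptor-1 (25.74). S7 replicate 2 was high for CTSL-like (188.6), cathepsin B (3.009), MPEG1-like-3 SMED30015696 (6.333) and inx13 (21.25).

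Y replicate 2 was high for cathepsin B (11.02), inx13 (4.941) and wntP-3 SMED30001470 (0.4405), and Y replicate 4 for SMED30017729 (0.6658). S2 replicate 2 (0.5771) and S6 replicate 1 (5.441) were high for SMED30017729, and S6 replicate 1 also for ADAMTS20-type (1.003). Within S5, replicate 2 was high for the NPC2-type transcript (305.4) and replicate 1 for wntP-3 (22.01). C4 replicate 4 held the C4 reads of the NPC2-type transcript (0.193).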

How the results depend on the processing

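Of the recomputed counts of members (those called, and those meeting the rule), 340 stayed within 1.5 times the reported count and 52 moved. For S4 against S3, members higher numbered 5 as reported, 2 with a pseudocount of 0.01, 1 without TMM, 3 with voom and 0 with the 2 groups alone, and members lower 1 with quantile normalization. For S6 against S4, members higher numbered 8 with a pseudocount of 0.01, 29 without TMM and 9 with quantile normalization, and members lower 5 with a pseudocount of 1, 1 with 0.01, 0 without TMM, 7 with quantile normalization, 8 with voom and 10 with the 2 groups alone. For S7 against S6, members lower numbered 15 with a pseudocount of 1, 0 with 0.01, 18 with quantile normalization, 24 with voom and 38 with the 2 groups alone. For SX against C4, members higher numbered 2 with quantile normalization and 3 with voom, and members lower 25 with quantile normalization. Shares over all transcripts moved too. Higher in S4 against S3 were 1.25% with a pseudocount of 0.01, 0.111% without TMM and 0.569% with voom. Lower in S6 against S4 were 13.9% with a pseudocount of 1, 12.9% with 0.01 and 4.09% without TMM. With quantile normalization 20.5% were lower there, with voom 22.1% and with the 2 groups alone 18.1%. The causes were not tested. The fit on 2 groups alone was chosen after seeing the data. For S4 against Y, members higher numbered 38 (quantile normalization and voom) to 49 (without TMM). SMED30030712 changed sign in S6 against S4 without TMM (0.27, adjusted p = 0.65).

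Leaving out 1 sample at a time gave 38 to 47 members higher and 0 lower for S4 against Y, 1 to 23 higher and 0 to 1 lower for S4 against S3, 10 to 16 higher and 0 to 5 lower for S6 against S4, 0 higher and 0 to 8 lower for S7 against S6, 1 to 5 higher and 12 to 16 lower for SX against C4, and 51 to 64 transcripts meeting the rule. Over all transcripts the count higher in S4 against S3 ran from 117 to 2274. By the group median 59 transcripts met the rule (53 members). Without TMM 43 met the rule, of which 30 were members. Of the 29 members lost, 25 had S8 over 0.2 of S5 and 10 had S6 above S5.

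With the replicate block the counts higher and lower were 45 and 0 (S4 against Y), 5 and 0 (S4 against S3), 14 and 4 (S6 against S4), 0 and 5 (S7 against S6) and 5 and 14 (SX against C4). The libraries of 1 replicate of each group other than SX were pooled in a lane, but whether the number in the labels marks that lane is not given in the sources used here. By the values the replicate numbers did not pair the samples: deviations of same-numbered samples correlated at -0.0567 to 0.295 (across transcripts), and in no comparison did every pair exceed 0.1. Among single tests named, 1125 recomputed values kept their call, 126 lost it, 3 gained it and 1 changed sign. Low values are coarsest in Y, where 1 read on 1 kilobase was worth 0.360 RPKM at a median of 10.8 M reads and a mean scaling factor of 0.26.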
